A study of Mus musculus with 18 samples.

Results

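The 10 genes described here encode fibroblast growth factor (FGF) receptors, ligands and a feedback inhibitor. They were chosen by name, with earlier results of these data known. They are *Fgfr1*, *Fgfr2*, *Fgfr3* and *Fgfr4*, the ligands *Fgf1*, *Fgf2*, *Fgf7*, *Fgf10* and *Fgf18*, and *Spry2*. All 10 were found among the 27179 genes counted. RNA was sequenced from 6 cell populations sorted from untreated male C57BL/6 mice, aged between 8 and 12 weeks by the study's methods, 3 libraries a population and 18 altogether. The BSCs, the NGFR-positive cells, and NGFR-negative non-basal cells came from the peeled tracheal epithelium of mice 1 to 3. The lungs of mice 4 to 6 gave EpCAM-positive CD104-positive airway cells with high CD24 (CD24hi, ciliated-enriched) or low CD24 (CD24lo, club-enriched), EpCAM-positive CD104-low alveolar cells, and EpCAM-negative cells. Lung and tracheal populations therefore differ in organ, animal and preparation as well as in cell type, and these cannot be told apart.

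FGFs are secreted proteins that bind receptor tyrosine kinases together with heparan sulfate and activate the MAP kinase cascade, which in turn induces inhibitors such as the Sprouty proteins. In the lung, *Fgf7* and *Fgf10* are classically made by mesenchymal cells and act on the IIIb splice form of *Fgfr2* in the epithelium. *Fgf1* binds all the FGF receptors, *Fgf2* prefers the IIIc splice forms, and *Fgf18* signals mainly through *Fgfr3* and other IIIc-type receptors. Counts per gene do not separate the IIIb and IIIc forms.

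Receptors and ligands were distributed unequally over the sorted populations. EpCAM-negative cells held the highest levels of *Fgfr1*, *Fgfr4*, *Fgf2*, *Fgf7*, *Fgf10* and *Fgf18*. Alveolar cells held the highest levels of *Fgfr2* and *Fgf1*, and BSCs the highest of *Fgfr3*. *Spry2* was highest in alveolar cells and BSCs, which did not differ beyond their spread.

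Levels are given in RPKM, which scales counts to the counted gene length and to the TMM-scaled library size, and are the only scale on which genes are compared with each other. Differences are log2 fold changes from a single edgeR quasi-likelihood fit of all 18 libraries, with p-values adjusted by the Benjamini-Hochberg method over the 17989 genes tested, and a gene was called at an adjusted p-value under 0.05. Counted reads were 29317215 to 32993621 per tracheal library and 9811503 to 13208897 per lung library. Of the cell type markers, *Krt5* was highest in BSCs, *Scgb1a1* in CD24lo cells, *Foxj1* in CD24hi cells, *Sftpc* in alveolar cells and *Col1a1* in EpCAM-negative cells. The club cell markers *Scgb3a2* and *Cyp2f2*, however, were at 12872 and 14268 RPKM in non-basal tracheal cells, above the 10702 and 11594 RPKM of the club-enriched CD24lo cells. *Epcam* was at 1.76 ± 0.110 RPKM (SD, n = 3) in EpCAM-negative cells and at 86.4 to 121 RPKM in the other populations. Endothelial markers were not confined to EpCAM-negative cells: their summed level was 84.7 to 133 RPKM there and 82.1 to 165 RPKM in CD24lo cells. In such bulk samples, fewer cells of a type and less RNA per cell cannot be told apart.

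*Fgf7* and *Fgf10* are shown by their promoters because they encode the main ligands of the epithelial *Fgfr2* form and followed each other across the libraries, with a Pearson r of 0.986 for log2 CPM over 18 libraries that share 6 populations. Each sequence below is the 250 bases before the gene's start, from RefSeq on GRCm38.p6, on the plus strand. *Fgf7* is at chr2:126034408-126034657 and *Fgf10* at chr13:118714449-118714698. Capitals mark a GC box (GGGCGG or CCGCCC, both strands searched).
Fgf7: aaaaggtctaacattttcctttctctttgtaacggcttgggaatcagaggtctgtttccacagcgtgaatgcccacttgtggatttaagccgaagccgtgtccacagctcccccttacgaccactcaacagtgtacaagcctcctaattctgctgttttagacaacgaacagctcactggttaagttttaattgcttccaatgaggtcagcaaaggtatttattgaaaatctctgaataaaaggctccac
Fgf10: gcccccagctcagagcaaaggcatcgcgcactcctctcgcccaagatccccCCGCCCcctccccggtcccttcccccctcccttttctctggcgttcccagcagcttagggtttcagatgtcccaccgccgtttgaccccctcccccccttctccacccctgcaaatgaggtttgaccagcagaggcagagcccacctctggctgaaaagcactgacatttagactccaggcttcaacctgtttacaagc
The *Fgf10* window held 1 GC box and 8 CG dinucleotides, and the *Fgf7* window held 0 GC boxes and 6 CG dinucleotides. A GC box was found in 32.7% of 32851 windows of the same length, and the median window held 6 CG dinucleotides. Neither window held a TATA box (TATAAA or TTTATA), found in 12.4% of windows, or an ETS core (GGAAGT or ACTTCC), found in 19.7%. These letters are described only, since no binding was measured. The 8 members with a reference window used here differed widely, and those of *Fgf2* and *Fgf18* held 20 and 37 CG dinucleotides.

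*Fgfr2*, on chromosome 7 (130162451 to 130266808, GRCm38), encodes the receptor for *Fgf7* and *Fgf10*. Alveolar libraries of mice 4, 5 and 6 held 191, 177 and 179 RPKM. BSC libraries of mice 1, 2 and 3 held 102, 99.4 and 101 RPKM. No alveolar library overlapped a BSC library, and alveolar cells were 1.804-fold higher (log2 fold change of BSCs minus alveolar cells -0.85, SE 0.10, adjusted p = 1.28e-06). The level then fell through CD24lo cells (56.2 ± 7.73 RPKM), non-basal cells (39.3 ± 3.51 RPKM) and CD24hi cells (21.6 ± 0.546 RPKM, all SD, n = 3). EpCAM-negative cells were lowest, with 10.4, 9.44 and 11.6 RPKM in mice 4, 5 and 6. *Fgfr2* was called in all 15 pairs of populations, including each pair of neighbours in this order. In the same lungs, EpCAM-negative cells were 17.3-fold lower than alveolar cells (log2 fold change -4.12, SE 0.12, adjusted p = 6.42e-15).

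*Fgfr1*, on chromosome 8 (25518759 to 25575718), encodes the receptor most associated with mesenchymal cells. EpCAM-negative libraries held 81.1, 83.4 and 87.5 RPKM in mice 4, 5 and 6. All the epithelial libraries lay far below them, and CD24lo cells were the nearest with 13.1, 16.5 and 14.4 RPKM in the same mice. EpCAM-negative cells were 5.72-fold higher than CD24lo cells (log2 fold change 2.52, SE 0.12, adjusted p = 4.27e-12). Non-basal cells (8.71 ± 0.597 RPKM) and alveolar cells (7.24 ± 1.13 RPKM) did not differ beyond the threshold (adjusted p = 0.0551). CD24hi cells (5.39 ± 0.529 RPKM) and BSCs (4.21 ± 0.383 RPKM, all SD, n = 3) were lower still. The difference of CD24hi from alveolar cells was small (log2 fold change -0.43, SE 0.12, adjusted p = 0.00496), and was not called without TMM scaling (library size alone) or in a fit of only these libraries.

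*Fgfr3*, on chromosome 5 (33721724 to 33737068), encodes a receptor best known from growing cartilage. It had the flattest distribution of the receptors. BSC libraries held 117, 123 and 123 RPKM, above every other library. EpCAM-negative cells held 86.1, 79.4 and 90.3 RPKM, and CD24lo cells 67.0, 86.7 and 68.0 RPKM in the same mice. These groups overlapped, and their difference of 0.21 on the log2 scale had a 95% interval from -0.06 to 0.47 (adjusted p = 0.161). CD24hi cells (70.1 ± 4.62 RPKM, SD, n = 3) did not differ from CD24lo cells beyond the spread (adjusted p = 0.634, 95% interval of the log2 difference -0.34 to 0.19). EpCAM-negative and CD24hi cells lay at the threshold (log2 fold change 0.28, SE 0.13, adjusted p = 0.0517), and with the mouse as a replicate block this difference was called (0.29, adjusted p = 0.0491). Alveolar cells were lowest, with 24.6, 22.3 and 17.5 RPKM, and BSCs were 5.65-fold higher than alveolar cells (log2 fold change 2.50, SE 0.13, adjusted p = 1.76e-11). In the GENCODE annotation of GRCm38, 13.9% of the *Fgfr3* exon bases also lie in an exon of the antisense gene *G630022F23Rik*. The strand setting of the counting is not given in the sources used here, so reads of the 2 genes may not be separated.

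*Fgfr4*, on chromosome 13 (55152818 to 55168759), encodes a receptor best known from liver, where it senses *Fgf15*. EpCAM-negative libraries held 25.2, 26.6 and 40.4 RPKM in mice 4, 5 and 6. Mouse 6 was the highest of these, and all 3 stood above the alveolar libraries at 4.76, 3.25 and 3.27 RPKM. EpCAM-negative cells were 8.15-fold higher than alveolar cells (log2 fold change 3.03, SE 0.38, adjusted p = 1.83e-06). CD24hi cells held 1.799, 0.612 and 0.350 RPKM and CD24lo cells 1.35, 0.250 and 0.329 RPKM in the same mice. In both airway populations mouse 4 was the highest, and the populations overlapped (adjusted p = 0.509). Without the CD24lo library of mouse 4, *Fgfr4* was called higher in CD24hi cells (log2 fold change 1.68, adjusted p = 0.046), and without the CD24hi library of mouse 4 the difference was -0.46 (adjusted p = 0.532). Tracheal libraries held 0 to 3 reads each, so no fold between BSCs and non-basal cells is given.

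The 4 receptor genes made up different shares of their summed RPKM in the 6 populations. The sum was 226 ± 3.34 RPKM in BSCs, 215 ± 12.5 RPKM in alveolar cells and 211 ± 16.8 RPKM in EpCAM-negative cells, and lower in CD24lo cells (145 ± 19.8 RPKM), non-basal cells (105 ± 9.29 RPKM) and CD24hi cells (98.0 ± 6.13 RPKM, all SD, n = 3). *Fgfr2* made up 84.9% ± 1.55 of it in alveolar cells and 4.98% ± 0.210 in EpCAM-negative cells. BSCs combined *Fgfr3* at 53.5% ± 0.960 with *Fgfr2* at 44.6% ± 1.08. EpCAM-negative cells combined *Fgfr3* at 40.6% ± 1.65, *Fgfr1* at 39.99% ± 1.94 and *Fgfr4* at 14.5% ± 2.74. In CD24hi cells, *Fgfr3* made up 71.5% ± 0.385. These shares are descriptions, with no test.

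**Figure D1:**
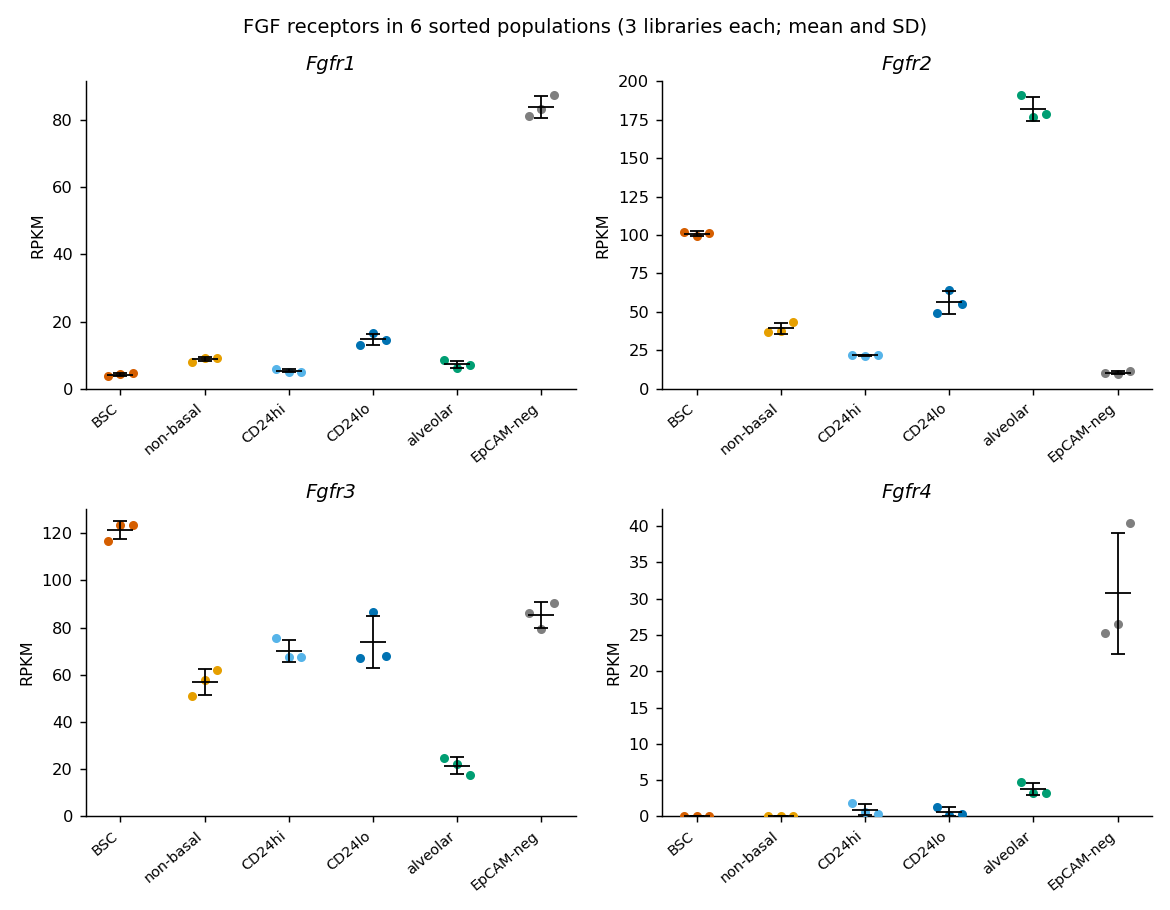
RPKM (linear axes from 0) of the 4 FGF receptor genes in each library, grouped by sorted population. Points are libraries and bars are the mean and SD of 3. *Fgfr2* reaches 182 RPKM in alveolar cells and *Fgfr1* and *Fgfr4* peak in EpCAM-negative cells, while the mean of *Fgfr3* lies between 56.9 and 121 RPKM in all populations except alveolar cells.

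*Fgf1*, on chromosome 18 (38838672 to 38929470), was higher in each epithelial population than in EpCAM-negative cells. Alveolar libraries held 66.8, 65.5 and 66.8 RPKM, CD24hi libraries 52.6, 57.1 and 59.9 RPKM and CD24lo libraries 45.03, 45.8 and 47.1 RPKM in mice 4, 5 and 6. EpCAM-negative libraries held 9.61, 9.67 and 9.37 RPKM. Every epithelial library was above every EpCAM-negative library, and alveolar cells were 6.95-fold higher (log2 fold change of EpCAM-negative minus alveolar cells -2.80, SE 0.07, adjusted p = 2.69e-15). The order among the lung epithelia was less firm. CD24hi cells were lower than alveolar cells by 0.23 on the log2 scale (SE 0.07, adjusted p = 0.00757), but with library size alone the sign turned (0.09, adjusted p = 0.319). In trachea, BSCs (32.2 ± 0.687 RPKM) and non-basal cells (32.1 ± 0.854 RPKM, both SD, n = 3) did not differ beyond the spread, with a 95% interval of the log2 difference from -0.14 to 0.15. With library size alone this difference was 0.35 and called (adjusted p = 0.000527).

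*Fgf7* (chromosome 2, 126034658 to 126091185), also called keratinocyte growth factor, showed the opposite distribution. EpCAM-negative libraries held 48.0, 50.8 and 50.2 RPKM. Alveolar libraries of the same mice held 4.58, 3.55 and 2.76 RPKM, without overlap. EpCAM-negative cells were 13.6-fold higher than alveolar cells (log2 fold change 3.77, SE 0.21, adjusted p = 4.58e-11), 26.3-fold higher than CD24lo cells (4.72, SE 0.23, adjusted p = 7.17e-12) and 32.8-fold higher than CD24hi cells (5.03, SE 0.23, adjusted p = 1.83e-12). CD24lo and CD24hi cells overlapped, at 1.88 ± 0.577 and 1.51 ± 0.389 RPKM (SD, n = 3). In trachea it was counted 0 to 2 times in BSC libraries and 2 to 8 times in non-basal libraries, and the difference lay at the threshold (adjusted p = 0.0511). Without the non-basal library of mouse 2 it was called (log2 fold change -2.33, adjusted p = 0.0279), as it was with limma voom and with DESeq2.

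*Fgf10* (chromosome 13, 118714699 to 118792573) directs branching of the embryonic lung. EpCAM-negative libraries held 21.0, 21.7 and 21.8 RPKM. Alveolar libraries held 2.26, 1.59 and 1.35 RPKM, CD24lo libraries 0.946, 0.430 and 0.478 RPKM and CD24hi libraries 0.413, 0.324 and 0.120 RPKM in mice 4, 5 and 6. All EpCAM-negative libraries were above all epithelial ones, by 12.4-fold over alveolar cells (log2 fold change 3.63, SE 0.24, adjusted p = 2.64e-10). CD24hi cells were 2.18-fold lower than CD24lo cells (log2 fold change -1.12, SE 0.36, adjusted p = 0.0143). That call was lost without the CD24lo library of mouse 4 (-0.65, adjusted p = 0.166) and without the CD24hi library of mouse 6 (-0.77, adjusted p = 0.0655). Each tracheal library held 0 or 1 reads.

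*Fgf2* (chromosome 3, 37348477 to 37410106) and *Fgf18* (chromosome 11, 33116970 to 33147400) were counted less deeply. For *Fgf2*, also called basic FGF, EpCAM-negative libraries held 10.3, 10.3 and 12.8 RPKM, from 87 to 117 reads, and alveolar libraries 0.888, 1.06 and 0.726 RPKM, from 5 to 8 reads. The groups did not overlap, with a 12.3-fold difference (log2 fold change 3.63, SE 0.35, adjusted p = 1.75e-07). The files count *Fgf2* over only 695 bases, which sets the scale of its RPKM, and 9.44% of its exon bases in GENCODE lie antisense to another gene, mainly *Nudt6*. For *Fgf18*, EpCAM-negative libraries held 4.29, 6.23 and 4.70 RPKM, from 58 to 82 reads, and alveolar libraries 0.568, 0.678 and 0.558 RPKM, from 6 to 8 reads. This 8.35-fold difference was also called (log2 fold change 3.06, SE 0.39, adjusted p = 1.84e-06). Airway libraries held 1 to 9 reads of either gene. Alveolar and CD24lo cells did not differ beyond counting and replicate spread in *Fgf2* (adjusted p = 0.101) or *Fgf18* (adjusted p = 0.793). CD24hi cells were called lower than alveolar cells in *Fgf2* (log2 fold change -1.59, SE 0.56, adjusted p = 0.0228), but not without the CD24hi library of mouse 6 (adjusted p = 0.0847) or the alveolar library of mouse 5 (adjusted p = 0.0714).

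**Figure D2:**
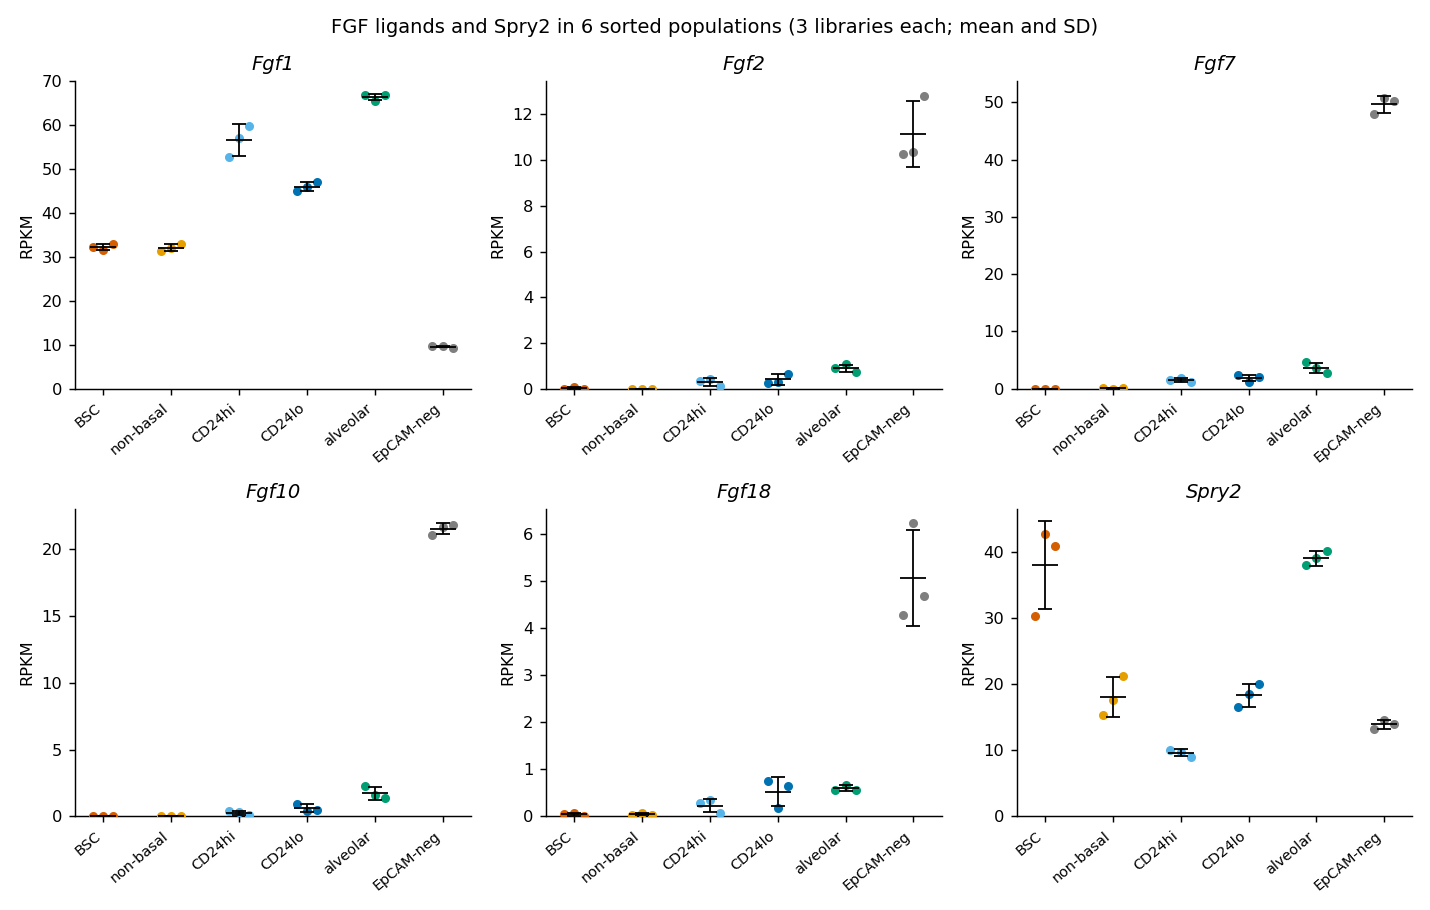
RPKM (linear axes from 0, a separate scale for each gene) of 5 FGF ligand genes and *Spry2* in each library, grouped by sorted population. Points are libraries and bars are the mean and SD of 3. *Fgf2*, *Fgf7*, *Fgf10* and *Fgf18* stand out in EpCAM-negative cells, where *Fgf1* is lowest at 9.55 RPKM, and *Spry2* is highest in alveolar cells and BSCs.

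*Spry2* (chromosome 14, 105891947 to 105896819) encodes an intracellular inhibitor of receptor tyrosine kinase signalling. Alveolar libraries held 38.0, 39.0 and 40.2 RPKM, and BSC libraries 30.3, 42.8 and 41.0 RPKM. The BSC library of mouse 1 was the lowest of these, and the groups overlapped (log2 fold change of BSCs minus alveolar cells -0.04, 95% interval -0.30 to 0.23, adjusted p = 0.804). With library size alone BSCs were called higher (0.36, adjusted p = 0.0125). CD24lo and non-basal cells lay close together at 18.3 ± 1.74 and 18.03 ± 3.01 RPKM (SD, n = 3). EpCAM-negative cells held 13.2, 14.6 and 13.98 RPKM and CD24hi cells 10.1, 9.76 and 9.04 RPKM. CD24hi cells were lowest, 4.05-fold below alveolar cells (log2 fold change -2.02, SE 0.14, adjusted p = 4.24e-10). The difference between EpCAM-negative and CD24lo cells was small (-0.39, SE 0.13, adjusted p = 0.0163) and was not called without the EpCAM-negative library of mouse 4 (adjusted p = 0.0605) or with library size alone (adjusted p = 0.115).

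The comparison of EpCAM-negative cells with the epithelia of the same lungs describes how the members differ between these sorted cells. In EpCAM-negative libraries the summed fibroblast markers were at 4037 to 4313 RPKM, endothelial markers at 84.7 to 133 RPKM and leukocyte markers at 8.76 to 20.4 RPKM. These libraries therefore need not stand for all non-epithelial lung cells. Against alveolar cells, 7 of the 10 members were higher and 3 lower, where 32.7% and 29.2% of all genes tested were called in those directions (61.9% in either). Against CD24lo cells, 6 were higher and 3 lower (background 32.1% and 31.4%, 63.4% in either), and with library size alone the split was 7 and 2. Against CD24hi cells, 7 were higher and 2 lower (36.7% and 35.6%, 72.2% in either). Over the members, the median difference on the log2 scale was 3.04, 2.88 and 4.19 in these comparisons, beside 0.01, 0.00 and 0.04 over all genes. *Fgfr1*, *Fgfr4*, *Fgf2*, *Fgf7*, *Fgf10* and *Fgf18* were called higher and *Fgfr2* and *Fgf1* lower in each of them. The comparisons share the EpCAM-negative libraries. Against CD24lo and CD24hi cells, *Fgf2* and *Fgf18* exceeded a CPM of 0.2 in 3 libraries only in EpCAM-negative cells, with 1 to 9 reads in each airway library. Both genes enter the counts and medians of these 2 comparisons, but nothing is read from their calls there. *Spry2* took both directions, lower than in alveolar and CD24lo cells and higher than in CD24hi cells (log2 fold change 0.53, SE 0.14, adjusted p = 0.00191).

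**Figure D3:**
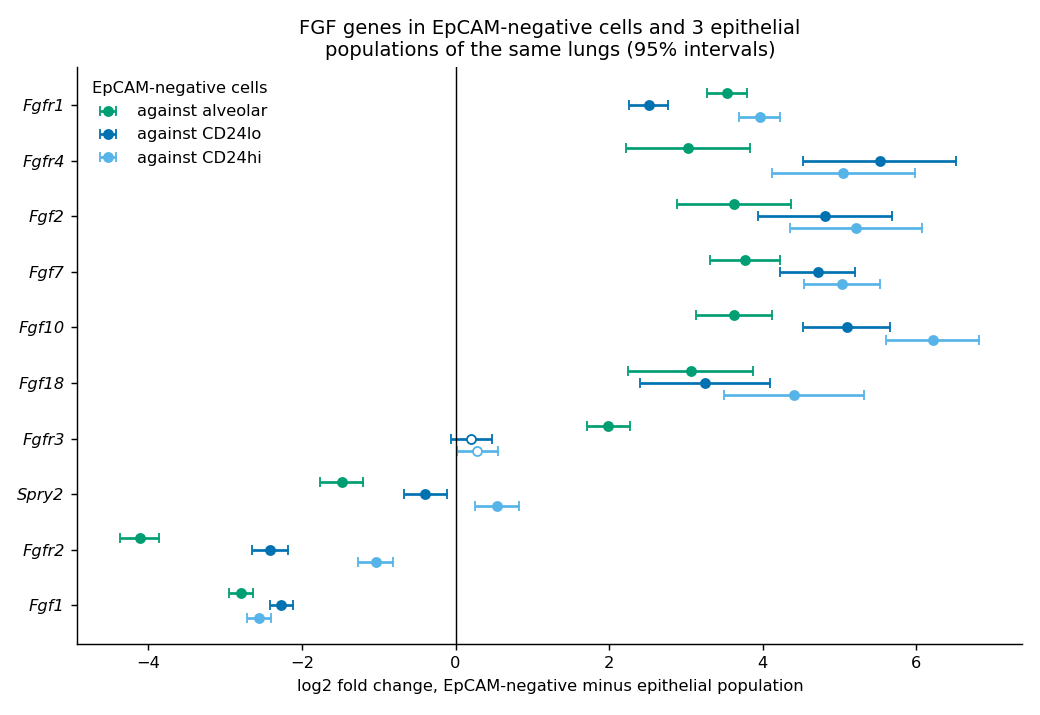
Log2 fold change of EpCAM-negative cells minus alveolar, CD24lo or CD24hi cells of the same mice for the 10 genes, with 95% intervals from the edgeR fit. Filled points were called at an adjusted p-value under 0.05 and open points were not. *Fgfr2* and *Fgf1* lie left of 0 in all comparisons, *Spry2* on both sides, and only *Fgfr3* has open points.

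Low levels of *Fgf2*, *Fgf7*, *Fgf10* and *Fgf18* were counted in the epithelial gates, where fibroblast markers were also present. In alveolar libraries the mean level of *Fgf7* was 7.34% of that in EpCAM-negative cells of the same mouse, of *Fgf10* 8.08%, of *Fgf2* 8.18% and of *Fgf18* 12%. The 5 fibroblast markers *Col1a1*, *Col1a2*, *Col3a1*, *Pdgfra* and *Tcf21* were at 3.20% to 8.77% there, with *Pdgfra* and *Tcf21* highest. In alveolar libraries, mouse 4 had the highest of the 3 percentages for *Fgf7*, *Fgf10* and *Fgf18* and for all 5 fibroblast markers. *Fgf2* was highest in mouse 5 there. In CD24lo libraries the ligands were at 2.89% to 11.4% and the fibroblast markers at 1.49% to 3.71%, and in CD24hi libraries at 1.34% to 4.50% and 0.588% to 2.19%. In CD24hi libraries all 5 fibroblast markers, *Fgf10* and *Fgf18* were highest in mouse 4, and *Fgf2* and *Fgf7* in mouse 5. *Fgf2* rested on 1 to 4 reads in each of these libraries and *Fgf18* on 1 to 5. In CD24lo libraries all 5 fibroblast markers, *Fgf7*, *Fgf10* and *Fgf18* were highest in mouse 4, and *Fgf2* in mouse 6. The smooth muscle and pericyte markers *Acta2*, *Myh11*, *Pdgfrb* and *Cspg4* were at 2.77% to 3.48% in alveolar, 5.31% to 7.47% in CD24lo and 1.76% to 3.76% in CD24hi libraries. The summed level of the 5 fibroblast markers was 4037 to 4313 RPKM in EpCAM-negative libraries, 129 to 212 RPKM in alveolar, 58.4 to 97.5 RPKM in CD24lo, 17.4 to 50.5 RPKM in CD24hi, 2.08 to 9.03 RPKM in non-basal and 0.0485 to 0.131 RPKM in BSC libraries, with *Tcf21* at 0 reads in BSCs. The part of either cell type in the ligand levels of the epithelial gates was not tested.

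**Figure D4:**
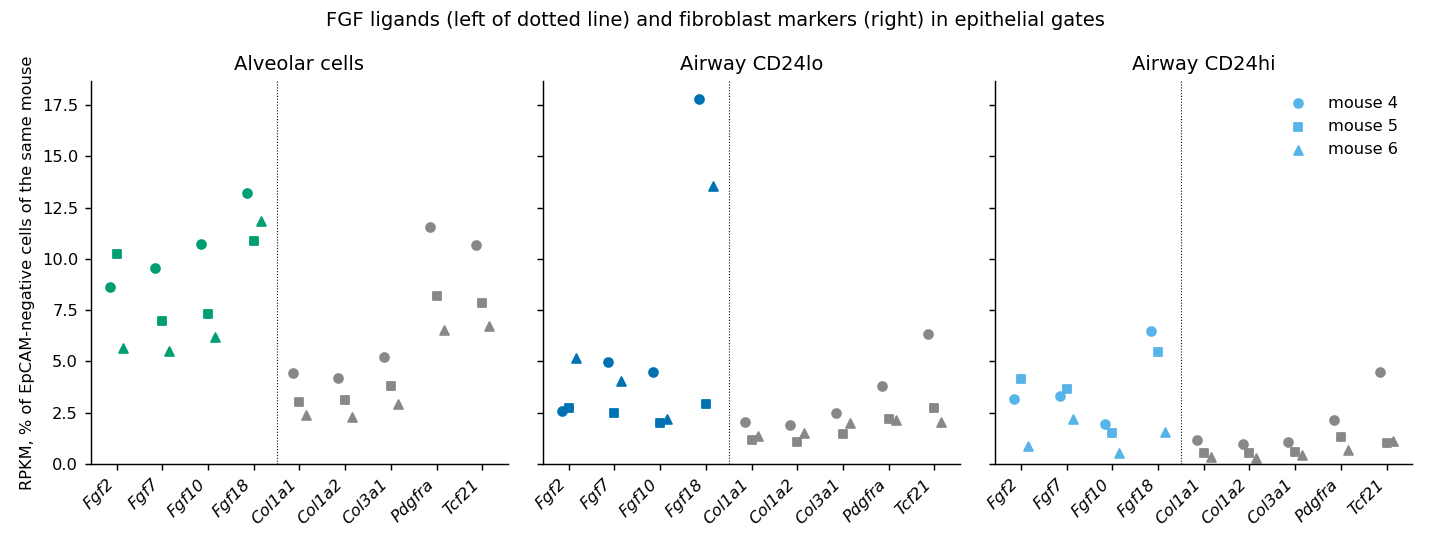
Level of 4 FGF ligand genes (left of the dotted line) and 5 fibroblast markers (right) in 3 epithelial populations, as a percentage (linear axis) of the RPKM in EpCAM-negative cells of the same mouse. Each symbol is a mouse. In alveolar cells the ligand means of 7.34% to 12% lie beside *Pdgfra* and *Tcf21* at 8.77% and 8.42% and above the collagens.

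In trachea, the comparison of BSCs with non-basal cells asks what distinguishes the stem cells from the other cells of the same epithelium. Among the 10 members, 3 were higher and 1 lower in BSCs, where 21.9% and 26.2% of all genes tested were called (48.2% in either direction). However, *Fgfr4*, *Fgf2*, *Fgf7*, *Fgf10* and *Fgf18* had at most 8 reads in any tracheal library and had passed the filter through lung libraries. The share of the 10 members is therefore not read against this background. Of the other 5 members, only *Fgf1* was not called. *Fgfr2* was 2.57-fold higher (102, 99.4 and 101 RPKM against 36.8, 37.9 and 43.4 RPKM in mice 1, 2 and 3; log2 fold change 1.36, SE 0.11, adjusted p = 1.19e-08). *Fgfr3* was 2.13-fold higher (117, 123 and 123 against 50.9, 57.8 and 62.0 RPKM; 1.09, SE 0.13, adjusted p = 1.40e-06). *Spry2* was 2.11-fold higher (30.3, 42.8 and 41.0 against 15.3, 17.6 and 21.3 RPKM; 1.08, SE 0.13, adjusted p = 1.71e-06). *Fgfr1* was 2.07-fold lower (3.80, 4.29 and 4.56 against 8.02, 9.05 and 9.06 RPKM; -1.05, SE 0.12, adjusted p = 8.18e-07). The library values of each of these genes did not overlap, a trait whose share over all genes was not computed. *Fgfr4*, *Fgf2*, *Fgf10* and *Fgf18* had 0 to 3 reads in each tracheal library and differences were not detectable at this depth. Of the mesothelial markers, *Msln* was at 1242 ± 22.6 RPKM in non-basal cells and 116 ± 12.4 RPKM in BSCs (SD, n = 3), while *Upk3b* had 0 to 2 reads and *Wt1* 0 to 4 reads in each tracheal library.

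Among the lung epithelia, 2 members were higher and 6 lower in CD24lo than in alveolar cells (background 24.2% and 24.2%, 48.4% in either direction). The higher ones were *Fgfr1* (2.03-fold, adjusted p = 1.21e-06) and *Fgfr3* (3.45-fold, adjusted p = 3.22e-09). In CD24hi against alveolar cells, 1 was higher and 8 lower (30.5% and 31.4%, 61.9% in either), and with library size alone 1 and 5, where all genes went from 5479 higher and 5652 lower to 7285 and 3858. *Fgfr3* was again the higher one (3.27-fold, adjusted p = 2.21e-09). The lower members included *Fgfr4*, *Fgf7* and *Fgf10* in both comparisons and *Fgf2* in CD24hi cells, with means no higher than 3.76 RPKM in alveolar cells. Fibroblast markers were also lower in the airway gates, summing to 129 to 212 RPKM in alveolar, 58.4 to 97.5 RPKM in CD24lo and 17.4 to 50.5 RPKM in CD24hi libraries. The part of other cell types in these calls was not tested. Between CD24hi and CD24lo cells, 1 was higher and 4 lower (27.8% and 27.2%), close to the 55% called in either direction. *Fgfr2* was 2.60-fold lower in CD24hi cells (log2 fold change -1.38, SE 0.11, adjusted p = 8.42e-09) and *Fgfr1* 2.73-fold lower (-1.45, SE 0.12, adjusted p = 1.71e-08). Between organs, BSCs had 1 member higher and 8 lower than alveolar cells (30.5% and 35.6%, 66.1% in either). In every pair across the organs, *Fgfr4*, *Fgf2*, *Fgf7*, *Fgf10* and *Fgf18*, with at most 8 reads in any tracheal library, had passed the filter through lung libraries, so nothing is read from their calls. Of the other 5 members, BSCs had 1 higher and 3 lower than alveolar cells. All 5 were called between BSCs and CD24hi cells (background 72%), CD24lo cells (63.8%) and EpCAM-negative cells (70.3%), and between non-basal cells and CD24hi cells (68.4%) and EpCAM-negative cells (71.6%). Between non-basal cells and CD24lo cells (53.1%) or alveolar cells (64%), 4 of the 5 were called, without *Spry2* and *Fgfr1*, respectively.

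The other genes of the pathway were described by a list of 80, of which 68 were tested. This list was also chosen with earlier results of these data known. Among 12 tested feedback regulators and target genes, BSCs had 10 higher and 1 lower than non-basal cells (background 21.9% and 26.2%, 48.2% in either direction), and their median log2 difference was 0.77 beside -0.02 over all genes. *Dusp6*, a phosphatase that inactivates ERK, held 143, 216 and 194 RPKM in BSCs and 58.9, 76.4 and 76.5 RPKM in non-basal cells of mice 1, 2 and 3, without overlap (log2 fold change 1.38, SE 0.16, adjusted p = 1.43e-06). *Etv1*, an ETS transcription factor, was the lower one (-0.53, SE 0.16, adjusted p = 0.012). *Etv5*, another ETS factor induced by FGF signalling in the developing lung, had a different distribution. Alveolar libraries held 193, 166 and 199 RPKM, and no other population had a mean above 5.37 RPKM. Alveolar cells were 60.7-fold higher than EpCAM-negative cells in *Etv5* (log2 fold change of EpCAM-negative minus alveolar cells -5.92, SE 0.16, adjusted p = 2.43e-15).

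The inhibitors of the Sprouty and Spred families were not highest in the same population. *Spry1* was at 83.9 ± 3.55 RPKM in alveolar cells, 43.6 ± 3.07 RPKM in EpCAM-negative cells and 39.3 ± 4.74 RPKM in BSCs (SD, n = 3). *Spry4* was highest in EpCAM-negative cells at 10.3 ± 0.874 RPKM, 3.57-fold above alveolar cells (adjusted p = 0.000321). *Spred3* was highest in alveolar cells at 5.30 ± 0.414 RPKM, and *Spred2* in BSCs at 38.8 ± 3.42 RPKM. *Il17rd*, which encodes the FGF inhibitor Sef, was at 6.69 ± 0.228 RPKM in EpCAM-negative cells and at most 1.38 RPKM elsewhere.

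**Figure D5:**
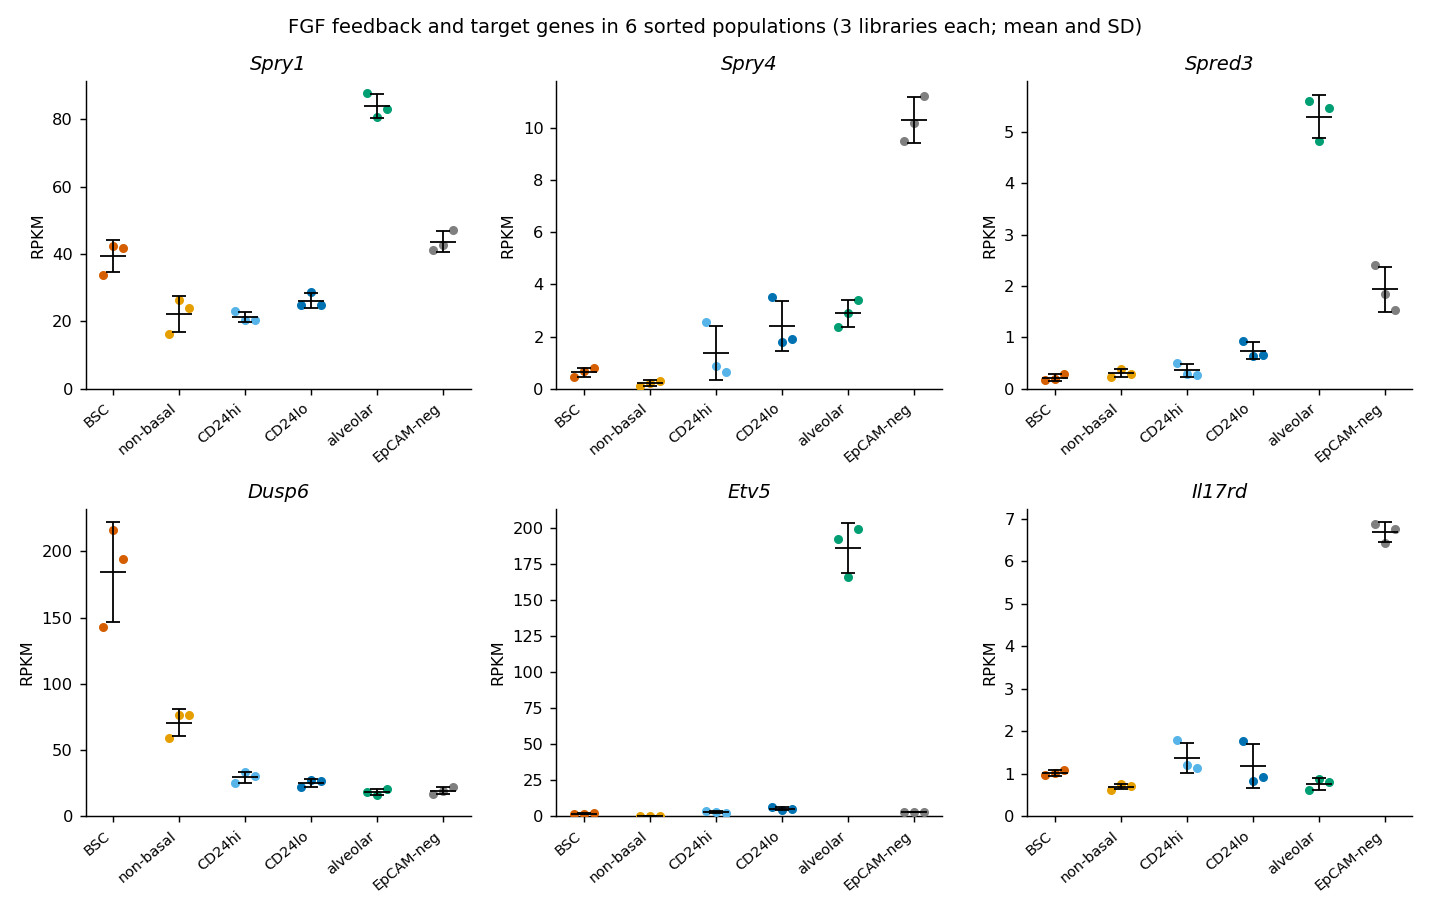
RPKM (linear axes from 0, a separate scale for each gene) of 6 feedback regulators and target genes of FGF signalling in each library, grouped by sorted population. Points are libraries and bars are the mean and SD of 3. *Dusp6* peaks in BSCs at 184 RPKM, *Etv5*, *Spry1* and *Spred3* in alveolar cells, and *Spry4* and *Il17rd* in EpCAM-negative cells.

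Heparan sulfate proteoglycans, the cell surface partners of FGFs, also differed between EpCAM-negative and alveolar cells. Of 9 tested core proteins, 6 were higher and 2 lower in EpCAM-negative than in alveolar cells (background 32.7% and 29.2%, 61.9% in either direction). BSCs, in contrast, had 4 of the 9 higher and 4 lower than EpCAM-negative cells (background 70.3% in either direction). *Gpc3*, a glypican, was at 381 ± 9.93 RPKM in EpCAM-negative and 19.4 ± 3.48 RPKM in alveolar cells (log2 fold change 4.29, SE 0.28, adjusted p = 2.73e-10). *Gpc6* was at 21.1 ± 1.34 and 0.324 ± 0.0789 RPKM. *Sdc1*, the epithelial syndecan, was at 6.36 ± 0.289 RPKM in EpCAM-negative cells, 177 ± 8.09 RPKM in alveolar cells and 185 ± 3.66 RPKM in BSCs (all SD, n = 3). In BSCs, 8 of the 9 core proteins were higher than in non-basal cells and 0 lower by edgeR (background 21.9% and 26.2%). *Sdc3* was 7.03-fold higher (log2 fold change 2.81, SE 0.38, adjusted p = 8.35e-06) and *Sdc1* 2.42-fold (1.28, SE 0.10, adjusted p = 1.30e-08). *Hs6st2*, a heparan sulfate 6-O-sulfotransferase, was at 22.2 ± 8.62 RPKM in CD24hi cells, 7.93 ± 0.194 RPKM in BSCs and 0.106 ± 0.0323 RPKM in EpCAM-negative cells. *Sulf1* and *Sulf2*, which encode the sulfatases that remove such 6-O-sulfates, were highest in EpCAM-negative cells, at 37.9 ± 2.02 and 41.4 ± 2.64 RPKM.

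Of 17 further *Fgf* genes listed, not all of which encode receptor ligands, 7 were tested. *Fgf16* held 3.84, 5.86 and 4.89 RPKM in BSCs and 1.59, 1.32 and 1.76 RPKM in non-basal cells of the same mice, a 3.12-fold difference without overlap (log2 fold change 1.64, SE 0.20, adjusted p = 2.66e-06). *Fgf23*, a hormone of phosphate balance, had 24 to 33 reads in EpCAM-negative libraries (1.29 ± 0.220 RPKM, SD, n = 3) and 0 reads in all the CD24hi, CD24lo, alveolar and BSC libraries. *Fgfbp1*, a carrier that releases FGFs from the matrix, was at 0.725 ± 0.283 RPKM in EpCAM-negative cells and 21.7 to 66.0 RPKM in the epithelial populations. The co-receptor genes *Kl* and *Klb*, needed by the hormone-like FGFs, had at most 9 reads in any library. Among 18 signal transducers, 1 was higher and 10 lower in EpCAM-negative than in alveolar cells (5.56% and 55.6%, background 32.7% and 29.2%). In either direction 61.1% were called, near the 61.9% of all genes. Their median log2 difference was -0.36 beside 0.01 over all genes. *Map2k1*, which encodes MEK1, was at 53.2 ± 5.18 RPKM in alveolar cells and 11.002 ± 0.370 RPKM in CD24hi cells (log2 fold change of CD24hi minus alveolar cells -2.27, SE 0.08, adjusted p = 1.73e-13).

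Over the whole list, BSCs had 42 of the 68 genes higher and 6 lower than non-basal cells, 70.6% called beside 48.2% of all genes, and the median log2 difference of the list was 0.60 beside -0.02. With library size alone the list split was 50 and 2, and that of all genes went from 3948 higher and 4720 lower to 7780 and 2989. EpCAM-negative cells had 24 higher and 22 lower than alveolar cells (67.6% called, background 61.9%), 37 and 15 against CD24lo cells (76.5%, background 63.4%), and 37 and 12 against CD24hi cells (72.1%, background 72.2%). The list includes *Fgf23* (24 to 33 reads in EpCAM-negative libraries, 0 in lung epithelia) and *Ndst3* (8 to 10 against 0 or 1), which passed the filter through EpCAM-negative libraries. *Fgf22* (6 or 7 reads in BSC libraries, 0 or 1 in others) passed through BSC libraries. Nothing is read from the calls of these genes. CD24lo cells had 17 higher and 30 lower than alveolar cells (69.1%, background 48.4%). CD24hi cells had 14 higher and 32 lower than alveolar cells (67.6%, background 61.9%), and 17 and 22 with library size alone. Against CD24lo cells they had 12 higher and 26 lower (55.9%, background 55%), and 24 and 21 with library size alone. BSCs had 28 higher and 18 lower than alveolar cells (67.6%, background 66.1%), and 39 and 11 with library size alone. The shares called lay near the background in EpCAM-negative against CD24hi cells, CD24hi against CD24lo cells and BSCs against alveolar cells.

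The genes whose log2 CPM followed each member most closely over the 18 libraries were found among 12001 candidates. These correlations reflect mostly the 6 population means and are descriptions. *Fgf10* was most like *Gria1* (Pearson r 0.997), *Meox2* and *Slit3*, and *Fgf7* most like *Ltbp1* (0.994), *Pgm5* and *Sgce*. For *Fgf2* they were *Srpx* (0.984), *Tnxb* and *Grk5*, and for *Fgf18* *Adamts4* (0.981), *Adgra2* and *Wscd2*. *Fgf1* was most like *Irx3* (0.989), *Cmtm8* and *Gclc*. Among the receptors, *Fgfr4* was most like *Slc7a10* (0.991), *Prkg2* and *Wnt2*, *Fgfr1* most like *Irf8* (0.972), *Fgl2* and *Sfrp4*, *Fgfr2* most like *Pm20d1* (0.961), *Rab38* and *Hmgb2*, and *Fgfr3* most like *Pde12* (0.941), *Il6ra* and *Atic*. *Spry2* was most like *Nectin1* (0.964), *Eef2* and *Xrn2*. Among the members themselves, *Fgfr2* and *Spry2* had a Pearson r of 0.863, and *Fgfr1* and *Fgf1* one of -0.81.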

How the data were processed

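RNA of 18 libraries from 6 sorted mouse populations was sequenced as single-end reads. The authors used Rsubread to align them to mm10 and featureCounts to count them by Entrez gene, and deposited raw counts with gene lengths, without normalization. The strand setting and the treatment of reads shared by genes are not given in the sources used here. A series-wide table repeats these counts and was left out. Populations and mice follow the sample labels, whereas the series' design text speaks of airways of lungs and does not mention trachea. No column was unmatched.

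Genes that exceeded a CPM of 0.2 in 3 or more libraries (17989, with all 10 members) were scaled by TMM and tested in R 4.3.3 with edgeR 4.0.16 (glmQLFit, glmQLFTest), with all 18 libraries in a single fit and Benjamini-Hochberg adjustment. A member counted mostly in lung passed this filter through its lung libraries. RPKM used the files' gene lengths. The members and lists were chosen with earlier results of these data known. Named genes are the members, up to 3 higher and 3 lower pathway genes per comparison (called, without overlap, at least 1 RPKM in the higher population), further list genes named for their role after their values were seen, the 3 genes of highest correlation per member (mean of at least 5 CPM, prior count 2), and cell type markers. Replicates of a population are separate mice.

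The alternatives were limma 3.58.1 voom, library size alone, RLE factors, DESeq2 1.42.0, no filter, a CPM above 1, only the libraries compared, the mouse as a replicate block, each library left out, and tracheal libraries thinned to lung depth. Same-numbered BSC and non-basal libraries come from one mouse by the labels, and their deviations correlated at 0.117 to 0.336; the 4 lung populations share mice, with correlations from -0.0593 to 0.278. Replicates differed by more than counting noise (chi-square per degree of freedom at least 3.5). The BSC and non-basal libraries of mouse 1 and the CD24hi and CD24lo libraries of mouse 4 stood apart from their replicates. In CD24hi cells the values were 33.2 and 39.6, against 5.54 between the other libraries. Among alveolar libraries that of mouse 5 stood apart (38.1 and 36.2 against 5.7). EpCAM-negative libraries differed by 3.5 to 7.5. The cause was not tested. The edgeR fit was first tested on simulated counts, for EpCAM-negative against alveolar cells only. Promoter sequences are RefSeq's on GRCm38.p6.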

Additional observations from a re-analysis of the deposited data

How the results depend on the processing

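Of 1073 values recomputed for 76 results, 1031 kept their direction and side of the threshold. The number of members called between CD24hi and CD24lo cells was 5, and 3 in a fit of only these libraries. The other totals of members and of pathway genes called in either direction stayed within 1.5 times of those reported. Counts in a single direction moved by more with library size alone for pathway genes in CD24hi against CD24lo cells (12 to 24 higher), BSCs against non-basal cells (6 to 2 lower) and BSCs against alveolar cells (18 to 11 lower), and for members in CD24hi against alveolar cells (8 to 5 lower) and BSCs against alveolar cells (1 to 2 higher). The members lower in BSCs than in non-basal cells went from 1 to 2 with voom, with DESeq2, with a CPM above 1 and without the non-basal library of mouse 2, and those higher in CD24hi than in CD24lo cells from 1 to 0 with only these libraries and to 2 without the CD24lo library of mouse 4. With library size alone the median over all genes moved on the log2 scale by -0.12 to 0.38 across the comparisons, by 0.33 for BSCs against non-basal cells, and differences smaller than that depend on the scaling. Under this setting *Fgfr3* in EpCAM-negative against CD24lo cells was called (log2 fold change 0.36, adjusted p = 0.014), and the sign turned for *Fgf1* in CD24hi against alveolar cells (0.0873), for *Fgfr3* in CD24hi against CD24lo cells (0.22) and for *Spry2* in BSCs against alveolar cells (0.36). *Spry2* in the last comparison was also 0.0196 with only those libraries and 0.10 without the BSC library of mouse 1 (range over left-out libraries -0.13 to 0.10). *Fgf1* in BSCs against non-basal cells was -0.00074 with a CPM above 1, -0.0048 with only those libraries, -0.0072 without the BSC library of mouse 3 and -0.0125 without the non-basal library of mouse 1 (range -0.0125 to 0.0256). Between CD24hi and CD24lo cells, *Fgfr4* was -0.46 without the CD24hi library of mouse 4 (range -0.46 to 1.68), *Fgfr3* 0.0509 without the CD24lo library of mouse 5 (range -0.14 to 0.0509) and *Fgf2* 0.0908 without the CD24lo library of mouse 6 (range -0.78 to 0.0908). *Fgf18* in CD24lo against alveolar cells was 0.24 without the CD24lo library of mouse 5 (range -0.61 to 0.24). None of the values that turned passed the threshold in both fits. In a fit of only the libraries compared, *Fgf1* was no longer called in CD24hi against alveolar cells (-0.14, adjusted p = 0.285) or CD24lo cells (0.28, adjusted p = 0.115). The cause was not tested. *Fgf18* was called lower in CD24hi cells than in alveolar cells without the CD24hi library of mouse 5 (adjusted p = 0.0436) and than in CD24lo cells without the CD24lo library of mouse 5 (adjusted p = 0.0311).

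With the mouse as a replicate block, *Fgfr3* in EpCAM-negative against CD24hi cells was called (0.29, adjusted p = 0.0491), and no other call of a member changed. *Fgf2* and *Fgf18* rest on 1 to 9 reads in each lung epithelial library, which limits what can be said of their order there.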
